A study of Ovis aries with 20 samples.

Results

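COL4A1 and COL4A2 encode the α1 and α2 chains of type IV collagen, the network-forming collagen of basement membranes, and were followed in the newborn lamb heart. The members were all probes of a sheep expression array whose gene name or description names either gene. They are 2 of the 870 genes that could be named on the array, each read by 1 of its 15008 probes. The pair was chosen by its low log2 signal in septum relative to left ventricle on these same arrays, so those values are given as a description, with no test.

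Gene expression was measured on 20 one-colour (Cy3) Agilent arrays of left ventricle (LV) and interventricular septum from singleton lambs of the sheep, Ovis aries. The titles of all 20 samples also carry the word telemetry, which the labels do not explain further. Control ewes had been infused with vehicle and cortisol ewes with cortisol at 1 mg/kg/day, in both cases from about day 115 of gestation up to birth, with 5 ewes in each treatment. The lambs were taken between 10 and 480 minutes after birth. Each treatment thus has 5 LV arrays and 5 septum arrays, which makes 4 groups, and every array is whole tissue, so fewer cells of a type and less RNA per cell cannot be told apart. The infusion was given to the ewe, and no uninfused group is part of these arrays.

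In a basement membrane, α1 and α2 chains wind into a heterotrimer made of more α1 than α2, and the trimers join end to end and side by side into a sheet around capillaries and around each cardiomyocyte. Endothelial cells, pericytes, fibroblasts and smooth muscle cells are known sources of these chains in the heart. The genes stand head to head and share a promoter region in mammals, from which they are transcribed in opposite directions. In the RefSeq sheep gene table COL4A1 and COL4A2 were on the same chromosome with 0 genes between them.

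The probes are printed because each reads the collagen repeat itself. Each is a 60-base sense-strand sequence, and capitals mark the glycine codons, GGN, that recur every 9 bases in the Gly-X-Y triple helix.
COL4A1, probe A_70_P047986: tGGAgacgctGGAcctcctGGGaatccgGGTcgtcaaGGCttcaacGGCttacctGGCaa
COL4A2, probe A_70_P047871: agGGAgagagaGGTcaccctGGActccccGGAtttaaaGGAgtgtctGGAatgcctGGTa
Both probes held GGN at 7 of 7 such places, without a stop codon in that frame. Of the 15008 probes, 24 (0.160%) had this pattern throughout, and all 6 of these that carried a gene name were collagens. The longest stretch shared by the COL4A1 and COL4A2 probes was 6 bases.

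Another probe, A_70_P027726, is filed under the same sequence contig as the COL4A2 probe but describes only an unnamed transcript, so it falls outside the rule. It is given beside COL4A2 as a measure of the same contig, and it lacks the repeat.
Contig probe A_70_P027726: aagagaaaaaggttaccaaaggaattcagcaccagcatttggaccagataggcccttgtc
Type IV collagen has further chains, α3 to α6, found in specialised basement membranes such as that of the kidney glomerulus. Of the 4 genes for them, COL4A3 alone had a named probe, which was well above background on 1 of 20 arrays and was not tested.

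The COL4A1 and COL4A2 probes were well above background on 20 of 20 arrays. Levels are log2 signal relative to the array's own 75th percentile, so a level of 0 is the brightness that 75% of probes do not exceed. Lambs are numbered within treatment, and an LV and a septum array with the same treatment and number are taken as 1 lamb, which the labels do not state and which rests on the correlations given below.

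COL4A1 in LV control lambs 1 to 5 stood at log2 levels of 0.32, 0.07, 0.15, -0.36 and -0.16, with a mean of 0.00 ± 0.26 (SD, n = 5). In LV cortisol lambs 1 to 5 it stood at 0.51, 0.35, 1.00, 0.10 and -1.34, with a mean of 0.12 ± 0.88 (SD, n = 5). Lambs 1 to 3 of the cortisol group lay above every control LV array, and lamb 5 lay below all of them. COL4A1 in septum control lambs 1 to 5 stood at -0.78, -1.01, -1.22, -1.49 and -1.04, with a mean of -1.11 ± 0.26 (SD, n = 5). In septum cortisol lambs 1 to 5 it stood at -0.79, -0.48, -0.27, -1.08 and -1.49, with a mean of -0.82 ± 0.48 (SD, n = 5). The cortisol septa overlapped the control septa, and lamb 5 was again the lowest of its group.

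COL4A2 in LV control lambs 1 to 5 stood at log2 levels of -0.34, -0.88, -0.89, -1.14 and -0.76, with a mean of -0.80 ± 0.29 (SD, n = 5). In LV cortisol lambs 1 to 5 it stood at 0.48, 0.24, 0.24, -0.43 and -2.28, with a mean of -0.35 ± 1.13 (SD, n = 5). Lambs 1 to 3 of the cortisol group lay above every control, as for COL4A1, and lamb 5 lay below every control. COL4A2 in septum control lambs 1 to 5 stood at -1.47, -2.00, -2.17, -1.88 and -1.82, with a mean of -1.87 ± 0.26 (SD, n = 5). In septum cortisol lambs 1 to 5 it stood at -1.06, -0.77, -1.29, -1.76 and -2.30, with a mean of -1.44 ± 0.60 (SD, n = 5). Here too cortisol lambs 1 to 3 were above every control septum and lamb 5 was below every one.

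**Figure D1:**
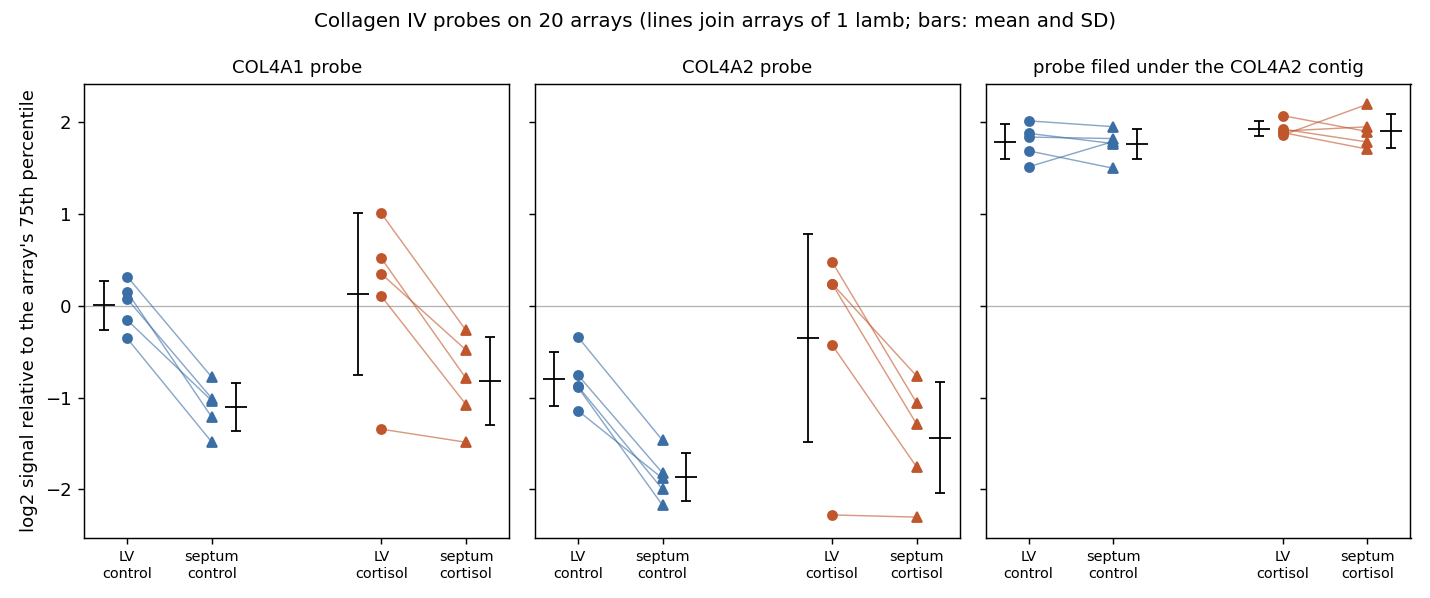
Log2 signal relative to the array's 75th percentile (y axis) for the COL4A1 probe, the COL4A2 probe and the probe filed under the COL4A2 contig, in the 4 groups (x axis). Circles are LV and triangles septum, lines join the arrays of 1 lamb, and black bars give the mean and SD of 5 arrays: both collagen probes step down from LV to septum by at least 0.74 in every lamb but cortisol lamb 5, while the contig probe stays between 1.50 and 2.19.

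The contig probe did not follow the COL4A2 probe. Its lowest log2 level on the 20 arrays was 1.50 and its highest 2.19, and its septum minus LV difference averaged -0.02 ± 0.19 (SD, n = 10 lambs). Its r with COL4A2 over the 20 arrays, after the group means were taken out, was 0.05. Which of these probes reads the COL4A2 transcript was not tested.

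Septum minus LV differences were taken within each lamb. For COL4A1 they were -1.10, -1.08, -1.36, -1.13 and -0.88 in control lambs 1 to 5 and -1.31, -0.83, -1.27, -1.18 and -0.14 in cortisol lambs 1 to 5. The COL4A1 difference was below 0 in 10 of 10 lambs and averaged -1.03 ± 0.36 (SD, n = 10), which is a 2.04-fold higher signal in LV. It averaged -1.11 ± 0.17 (SD) in the 5 control lambs and -0.95 ± 0.49 (SD) in the 5 cortisol lambs.

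For COL4A2 the differences were -1.13, -1.12, -1.29, -0.74 and -1.07 in control lambs 1 to 5 and -1.54, -1.01, -1.53, -1.33 and -0.02 in cortisol lambs 1 to 5. The COL4A2 difference was below 0 in 10 of 10 lambs and averaged -1.08 ± 0.44 (SD, n = 10), a 2.11-fold higher signal in LV. It averaged -1.07 ± 0.20 (SD) in control and -1.09 ± 0.63 (SD) in cortisol lambs. In cortisol lamb 5 LV and septum were nearly level for both genes, with its LV value the lowest of the 10 LV arrays and its septum value at or close to the lowest of the 10 septum arrays.

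All 5 control septa lay below all 5 control LV arrays for both genes. Over the 9929 probes with a value in every lamb, 3.69% showed that separation, 3.14% were lower in septum in 10 of 10 lambs and 18.2% in 5 of 5 control lambs. The median of all these probes was 0.03 and the range from the 5th to the 95th percentile was -0.51 to 0.40. COL4A2 was the 35th lowest and COL4A1 the 40th lowest mean difference, and 48 probes had a mean at or below -1. These counts use the contrast by which the genes were picked and are background only.

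**Figure D2:**
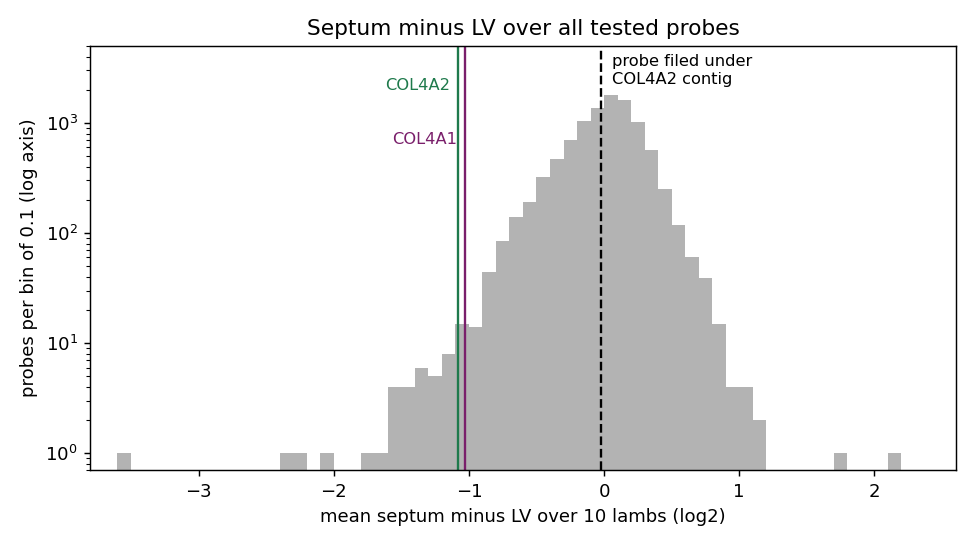
Number of probes (y axis, log scale) by mean septum minus LV difference over 10 lambs (x axis, log2, bins of 0.1) for the 9929 probes measured in every lamb. The solid lines mark COL4A1 at -1.03 and COL4A2 at -1.08, in the low tail, and the dashed line marks the contig probe at -0.02.

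Before scaling the collagen signals themselves were closer. The processed COL4A1 intensity had a median of 171 in LV (107 to 431) and of 125 in septum (102 to 219), while the 75th percentile by which arrays were scaled had a median of 162 in LV (99.2 to 402) and of 280 in septum (155 to 441). The COL4A2 intensity had a median of 119 in LV (56.1 to 299) and of 81.4 in septum (59.1 to 178). Unscaled, the log2 septum minus LV difference was -0.38 ± 0.69 (SD) for COL4A1, below 0 in 7 of 10 lambs, and -0.42 ± 0.72 (SD) for COL4A2, below 0 in 6 of 10. The scanner software's processed signal was also replaced by normexp background correction with an added offset of 50, followed by the same scaling. The differences were then -0.56 for COL4A1 and -0.50 for COL4A2. The correction and the offset were changed together, and their separate parts were not tested.

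The arrays lay on 4 slides, and most LV and septum arrays of a lamb lay on different ones. Slide 1 held only septum arrays and slides 3 and 4 only LV arrays. Between those slides region and slide cannot be told apart, for the pair as for the counts over all probes. In the 3 lambs with both arrays on slide 2 (control 3, control 5 and cortisol 5), the COL4A1 difference averaged -0.80 and the COL4A2 difference -0.79. In the 2 control lambs among them the averages were -1.12 and -1.18. In the 7 lambs with arrays on different slides the averages were -1.13 ± 0.16 (SD) for COL4A1 and -1.20 ± 0.29 (SD) for COL4A2. The difference was thus present on a shared slide in both controls and close to 0 in cortisol lamb 5.

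Whether maternal cortisol changed the pair was tested with limma's moderated linear model over all probes, with Benjamini-Hochberg adjustment and a threshold of 0.05. Neither gene passed in LV, in septum, in the mean of both regions or in the contrast of septum and LV responses. No probe of the whole array passed in LV (0.0% of 9787, with 508, or 5.19%, at an unadjusted p under 0.05) or in septum (0.0% of 10369, with 385, or 3.71%, unadjusted). None passed for the mean of the regions either (0.0% of 10069, with 516, or 5.12%, unadjusted), nor for the difference between regions (0.0% of 10069, with 38, or 0.377%, unadjusted). The fit of the difference between regions left out the pairing by lamb, and with lamb as a block 357 probes were unadjusted and 0 passed.

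In LV the cortisol minus control difference of COL4A1 was 0.12 ± 0.37 (SE) in log2, with a 95% interval of -0.70 to 0.94 and an adjusted p of 0.967 (limma). That of COL4A2 was 0.45 ± 0.46 (SE), with a 95% interval of -0.55 to 1.46 and an adjusted p of 0.891 (limma). These intervals run from 0.618-fold to 1.91-fold for COL4A1 and from 0.681-fold to 2.75-fold for COL4A2. For each gene 4 of 5 cortisol LV arrays lay above the control mean. The values in the authors' deposited table gave 0.16 for COL4A1 and 0.45 for COL4A2 in LV, and the members' cells of that table for septum were empty.

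In septum the cortisol minus control difference of COL4A1 was 0.28 ± 0.24 (SE), with a 95% interval of -0.25 to 0.81 and an adjusted p of 0.818 (limma). That of COL4A2 was 0.43 ± 0.28 (SE), with a 95% interval of -0.18 to 1.04 and an adjusted p of 0.818 (limma). Again 4 of 5 cortisol septa lay above the control mean for each gene. Averaged over both regions of a lamb, the difference was 0.20 ± 0.29 (SE) for COL4A1, with an adjusted p of 0.883, and 0.44 ± 0.35 (SE) for COL4A2, with an adjusted p of 0.820 (limma). The 95% intervals for LV, septum and their mean all include 0, and their upper ends run from 1.76-fold for COL4A1 in septum to 2.75-fold for COL4A2 in LV.

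The septum response to cortisol minus the LV response was 0.16 ± 0.46 (SE) for COL4A1 and -0.02 ± 0.56 (SE) for COL4A2, with an adjusted p of 1.00 for both (limma). With lamb as a block the estimates were the same and the 95% intervals narrower, -0.32 to 0.65 for COL4A1 and -0.62 to 0.58 for COL4A2. The contig probe differed by 0.14 ± 0.15 (SE) in LV and 0.14 ± 0.15 (SE) in septum, with adjusted p values of 0.894 and 0.838 (limma).

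The averages joined unlike lambs. On slide 3, with 3 control and 3 cortisol LV arrays, the cortisol difference was 0.61 ± 0.28 (SE) for COL4A1 and 1.11 ± 0.26 (SE) for COL4A2. On slide 2, with 2 control LV arrays and the LV array of cortisol lamb 5 alone, it was -1.34 and -1.46, values that rest on 1 cortisol array. On septum slide 1, with 3 arrays of each treatment, it was 0.58 ± 0.27 (SE) for COL4A1 and 0.74 ± 0.25 (SE) for COL4A2, and on slide 2, with 2 of each, -0.16 ± 0.25 (SE) and -0.03 ± 0.30 (SE). The septum values on slide 2 lie within their SE of 0, and neither gene passed on LV slide 3 or on either septum slide. Treatments were unevenly spread over slides in LV. With slide as a fixed block the LV difference of COL4A1 was 0.01 ± 0.36 (SE) and that of COL4A2 0.32 ± 0.44 (SE), and with slide as a random block 0.08 ± 0.35 (SE) and 0.40 ± 0.42 (SE).

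Leaving out cortisol lamb 5 gave differences of 0.49 for COL4A1 and 0.93 for COL4A2 in LV and of 0.45 and 0.65 in septum, with lowest adjusted p of 0.386 (limma), for COL4A2 in LV. Leaving out cortisol lamb 3 turned the COL4A1 difference in LV to -0.10. Leaving out cortisol lamb 1, 2 or 3 instead brought the COL4A2 difference in LV down to between 0.24 and 0.30. In septum the COL4A1 difference was 0.15 without cortisol lamb 3, and the COL4A2 difference 0.27 without cortisol lamb 2. Averaged over both regions, COL4A1 was at 0.02 without cortisol lamb 3 and 0.47 without cortisol lamb 5, and COL4A2 at 0.29 without cortisol lamb 1, 0.28 without cortisol lamb 2 and 0.79 without cortisol lamb 5.

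**Figure D3:**
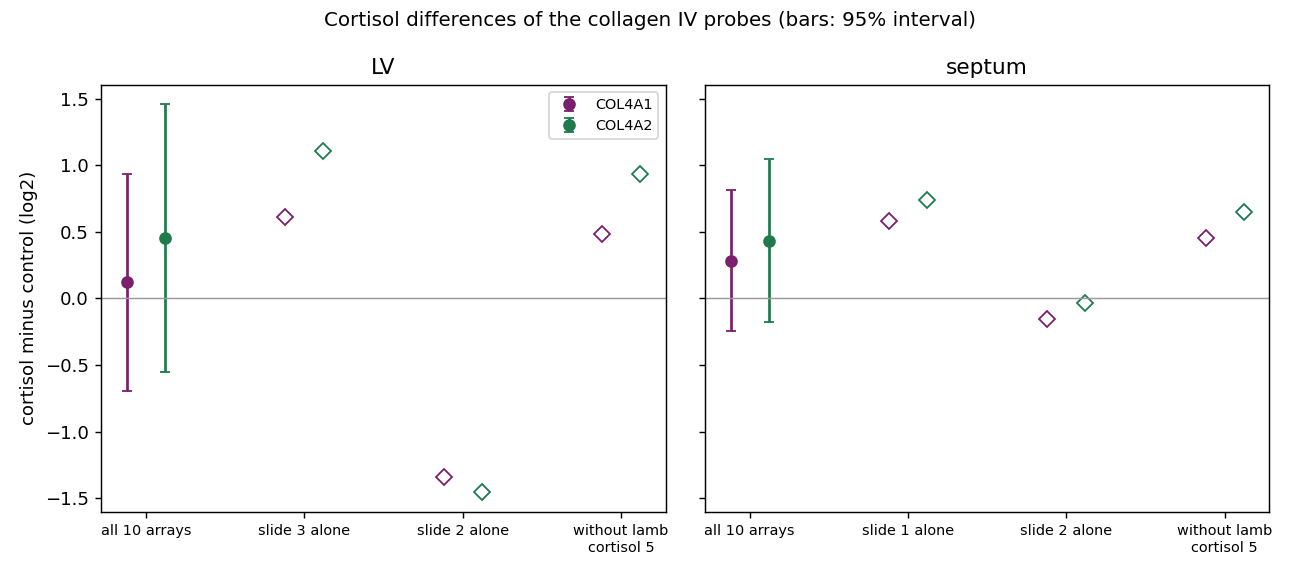
Cortisol minus control differences (y axis, log2) of the COL4A1 and COL4A2 probes in LV and in septum, for all 10 arrays of a region (filled circles with 95% intervals), for each slide that holds both treatments, and without cortisol lamb 5 (open diamonds). The intervals over all arrays include 0, and the slide 2 values in LV, which rest on 1 cortisol array, fall at -1.34 and -1.46.

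Both chains enter the same trimer, and how tightly their signals moved together was measured over lambs within a region. In LV, Pearson's r between COL4A1 and COL4A2 was 0.923 (n = 10 lambs, permutation p = 0.00018, adjusted over the 2 regions 0.00036, two-sided) and Spearman's rho 0.879 (permutation p = 0.00149, adjusted 0.00298). Without cortisol lambs 5 and 3, the farthest from the COL4A1 median, r was 0.858 (n = 8, exact permutation p = 0.00694). In septum, r was 0.819 (n = 10 lambs, permutation p = 0.00363, adjusted 0.00363) and rho 0.794 (permutation p = 0.00873, adjusted 0.00873). Without cortisol lambs 3 and 2, r was 0.772 (n = 8, exact permutation p = 0.0219). Each lamb's COL4A1 and COL4A2 values come from the same array, so array-wide effects are shared by both.

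Within slides the relation was measured on 6 arrays each. It was 0.831 on LV slide 3 (exact permutation p = 0.0222) and 0.713 on septum slide 1 (exact permutation p = 0.0944), and the other slides held too few arrays of a region. Without cortisol lamb 5 alone, r was 0.823 in LV and 0.770 in septum. With the treatment means taken out it was 0.939 in LV and 0.785 in septum.

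Most probes did not follow COL4A1 in this way. The median r of COL4A1 with all 9676 probes measured on every LV array was 0.01, and COL4A2 ranked 27th among them. In septum the median was 0.06 and COL4A2 ranked 317th of 10339, so 3.06% of probes followed COL4A1 more closely there, against 0.269% in LV. Over all 20 arrays, after the group means were taken out, r was 0.90 and COL4A2 ranked 16th of 9928 for COL4A1. The contig probe had an r of 0.11 with COL4A1 on the same scale, rank 4296. Taken from the side of COL4A2, COL4A1 ranked 36th in LV, 360th in septum and 26th over the 20 arrays.

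**Figure D4:**
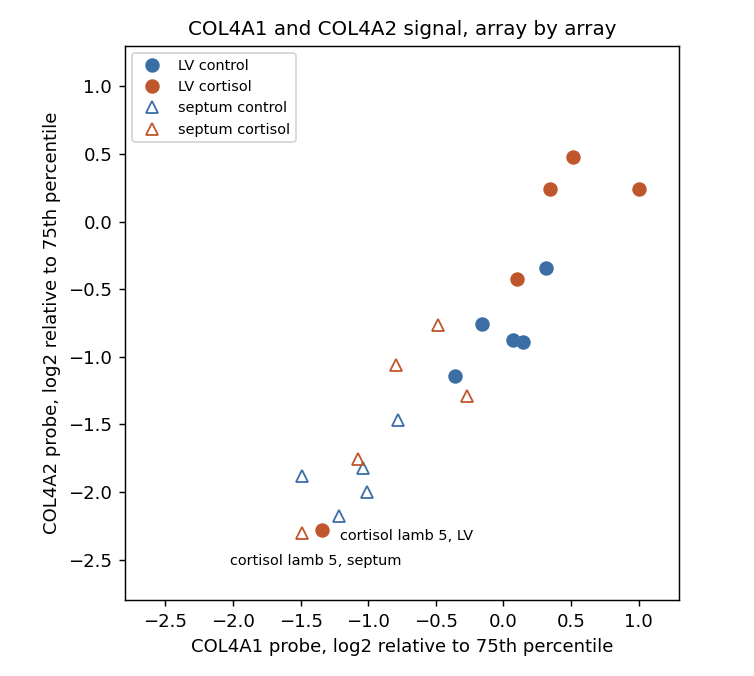
COL4A2 (y axis) against COL4A1 (x axis), both as log2 signal relative to the array's 75th percentile, 1 point for each of the 20 arrays. Filled circles are LV and open triangles septum; the points run along 1 band, and the LV array of cortisol lamb 5, at -1.34 and -2.28, lies with the lowest septum arrays.

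The genes also moved together between regions and between lambs. The per-lamb septum minus LV differences of COL4A1 and COL4A2 had an r of 0.896 over 10 lambs, with cortisol lamb 5 at one end. A lamb's deviation from its group mean in LV went with its deviation in septum, with an r of 0.87 for COL4A1 and 0.88 for COL4A2 (n = 10). Over the tested probes with a value on every array, residuals of a lamb's LV and septum arrays correlated at 0.447 to 0.813. For 10 of 10 lambs its own partner was the best match among the 5 septum arrays of its treatment. These are descriptions over arrays that share lambs.

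The log2 ratio of COL4A2 to COL4A1 on the same array was used to ask whether the chains moved by unequal amounts. Its SD over the 20 arrays was 0.31, and the septum ratio minus the LV ratio averaged -0.05 ± 0.20 (SD, n = 10 lambs), below 0 in 7 of 10. The cortisol mean of the ratio exceeded the control mean by 0.33 in LV and 0.15 in septum. Neither ratio difference was tested, and a ratio within an array cannot say which chain moved.

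The named genes most like each chain were taken by Pearson's r over the 20 arrays after the group means were removed, each gene by its most similar probe. For COL4A1 they were KDR, the main endothelial receptor for VEGF (r 0.91), MMP2, a gelatinase that degrades type IV collagen (0.89), EDNRA, the endothelin A receptor (0.88), RGS2, a brake on G-protein signalling (0.87), ATP5PD, an ATP synthase subunit (0.84), and RAP2A, a small GTPase (0.83). For COL4A2 they were COL1A2, a chain of fibrillar type I collagen (0.90), IRAK4, a kinase of innate immune receptors (0.86), COL3A1, the type III collagen chain (0.85), MMP2 (0.85), TYROBP, an adaptor of myeloid receptors (0.84), and COL1A1 (0.84). MMP2 alone stood on both lists, which depends on where the lists were cut. By the same probes, KDR had an r of 0.841 with COL4A2, just below COL1A1 at 0.842. ATP5PD followed at 0.83, RAP2A at 0.78, EDNRA at 0.74 and RGS2 at 0.67. With COL4A1, TYROBP had an r of 0.80, IRAK4 0.79, COL1A2 0.71, COL1A1 0.69 and COL3A1 0.63. Probes of a gene did not all behave alike: the 4 KDR probes ranged from 0.68 to 0.91 with COL4A1, and the 2 IRAK4 probes were at -0.20 and 0.86 with COL4A2.

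All of these genes also averaged lower in septum by their most similar probe, in 8 to 10 of 10 lambs, which is again a description. The means ran from -0.20 for MMP2 to -1.34 for COL3A1. Of the 9929 probes with a value in every lamb, 55.3% averaged higher in septum and 3.14% were below 0 in 10 of 10 lambs. EDNRA (-0.46) and IRAK4 (-0.47) were below 0 in 10 of 10 lambs, while the second IRAK4 probe averaged 0.13. KDR averaged -0.85 in septum minus LV by its most similar probe and was below 0 in 10 of 10 lambs, while 2 of its 4 probes averaged -0.04. COL1A2 averaged -1.10 and was below 0 in 10 of 10 lambs. COL3A1 averaged -1.34 by its most similar probe, which is also its brightest, and 3 of its 4 probes were below 0 in 10 of 10 lambs. COL1A1 averaged -0.36 by its most similar probe, below 0 in 8 of 10 lambs, and -0.58 by its brightest probe, below 0 in 9 of 10.

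Other basement membrane components were sparsely covered: of 26 listed, among them laminins, nidogens and perlecan, only NTN4 had a named probe. NTN4, a netrin that binds laminin, averaged -1.26 in septum minus LV and was below 0 in 10 of 10 lambs, and its second probe averaged -1.04. Its cortisol differences had the opposite sign from the collagen IV pair, -0.48 ± 0.35 (SE) in LV and -0.53 ± 0.47 (SE) in septum, and neither passed (adjusted p 0.88 and 0.83, limma). Its r with COL4A1 over the 20 arrays was 0.08 and with COL4A2 0.34. Collagen folding and secretion had 1 named gene of 25, HSPA5, the endoplasmic reticulum chaperone BiP. HSPA5 averaged -0.70 in septum minus LV, below 0 in 9 of 10 lambs, with cortisol differences of 0.02 ± 0.41 (SE) in LV and 0.41 ± 0.43 (SE) in septum that did not pass.

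Cells bind basement membrane through integrins, and 3 of 23 listed receptors had named probes. ITGB1, the shared β1 chain, averaged 0.00 in septum minus LV and had cortisol differences of 0.09 ± 0.15 (SE) in LV and 0.16 ± 0.19 (SE) in septum. ITGAV, the αV chain, averaged 0.39 in septum minus LV, below 0 in 1 of 10 lambs, and had cortisol differences of 0.14 ± 0.34 (SE) and -0.03 ± 0.18 (SE). ITGB3 was well above background on 0 of 20 arrays and was not tested. With 2 of 23 receptors tested, the list as a whole was hardly read.

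The enzymes that cut basement membrane collagen and their inhibitors had 12 of 19 listed genes on the array, of which 8 were tested in LV and 9 in septum. In LV 6 of 8 and in septum 6 of 9 had a positive cortisol difference, none passed, and the medians were 0.15 and 0.30 beside -0.01 and 0.03 for all probes. Of all probes 49.1% in LV and 54.7% in septum had a positive difference. TIMP1, an inhibitor of metalloproteinases, had cortisol differences of 0.81 ± 0.48 (SE) in LV and 0.64 ± 0.36 (SE) in septum. TIMP3, a matrix-bound inhibitor, had 0.49 ± 0.44 (SE) and 0.76 ± 0.56 (SE). MMP2 had 0.14 ± 0.27 (SE) and 0.08 ± 0.21 (SE), and MMP14, which activates MMP2, had 0.15 ± 0.37 (SE) and 0.30 ± 0.40 (SE). The lysosomal cathepsins went differently: CTSS had -0.31 ± 0.39 (SE) and -0.44 ± 0.41 (SE), and CTSB had 0.07 ± 0.19 (SE) and -0.01 ± 0.27 (SE).

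TGF-beta signalling, a known inducer of collagen IV, had 9 of 12 listed genes on the array and 7 tested. The cortisol difference was positive for 6 of 7 in LV and 7 of 7 in septum, with medians of 0.43 and 0.41, and 0 of 7 passed in either region. Over all probes 49.1% in LV and 54.7% in septum had a positive difference, with medians of -0.01 and 0.03. SMAD2, a signal transducer of the receptors, had 0.46 ± 0.21 (SE) in LV and 0.52 ± 0.26 (SE) in septum. TGFBR1, the type I receptor, had 0.56 ± 0.39 (SE) and 0.41 ± 0.33 (SE), and TGFB1, a ligand, had -0.01 ± 0.23 (SE) and 0.15 ± 0.24 (SE). TGFBR2, the type II receptor, had 0.37 ± 0.29 (SE) and 0.44 ± 0.31 (SE), SMAD4, the common partner of SMAD2, had 0.43 ± 0.23 (SE) and 0.39 ± 0.30 (SE), and TGFB2, another ligand, had 0.31 ± 0.32 (SE) and 0.39 ± 0.40 (SE). Septum minus LV split 3 above and 4 below 0 in this list, with TGFB2 at -0.47 and TGFBR1 at 0.49.

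Fibrillar and interstitial collagens had 6 of 12 listed genes on the array, all tested. The cortisol difference was positive for 6 of 6 in LV and 6 of 6 in septum, with medians of 0.50 and 0.60, beside 0.29 and 0.36 for the collagen IV pair, and none passed. A positive difference was found for 49.1% of all probes in LV and 54.7% in septum. COL1A1 had 0.89 ± 0.45 (SE) in LV and 0.92 ± 0.44 (SE) in septum. COL6A1, of the microfibrillar type VI collagen, had 0.75 ± 0.43 (SE) and 0.46 ± 0.32 (SE). COL12A1 had 0.51 ± 0.46 (SE) and 0.97 ± 0.48 (SE), COL1A2 had 0.50 ± 0.52 (SE) and 0.74 ± 0.46 (SE), COL5A2 had 0.26 ± 0.25 (SE) and 0.26 ± 0.24 (SE), and COL3A1 had 0.07 ± 0.56 (SE) and 0.22 ± 0.43 (SE). In septum minus LV the list split 3 above and 3 below 0, with COL12A1 at 0.69 and COL6A1 at 0.33 on the higher side, against -1.10 for COL1A2.

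Markers of the cell types that make or surround basement membrane were read in the same arrays. Of 15 endothelial markers 6 had named probes, and their summed level, in multiples of the 75th percentile, was 13.4 to 16.1 in LV control, 7.44 to 23.6 in LV cortisol, 13.1 to 15.5 in septum control and 10.2 to 25.2 in septum cortisol. Its log2 septum over LV ratio within lambs had a median of -0.01 (-0.56 to 0.59). PECAM1, an adhesion molecule of endothelial junctions, carried 72.9% to 91.2% of that sum, so the sum reads mainly PECAM1. Gene by gene, 3 of the 5 tested markers were above 0 in septum minus LV (PECAM1 at 0.14, TIE1 at 0.07 and NOS3 at 0.01) and 2 below. Those below were FLT1, a VEGF receptor, at -0.07 and KDR at -0.72, the latter below 0 in 10 of 10 lambs. TEK was well above background on 8 of 20 arrays and was not tested.

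Of 11 fibroblast markers 6 had named probes, with a summed level of 99.3 to 150 in LV control, 88.1 to 248 in LV cortisol, 95.5 to 138 in septum control and 89.2 to 234 in septum cortisol. Its septum over LV ratio had a median of -0.03 (-0.15 to 0.12), and VIM alone carried 53.7% to 77.9% of the sum. Gene by gene the list had a median of -0.31 in septum minus LV, with 4 of 6 below 0: COL3A1 at -1.34, COL1A2 at -1.10, COL1A1 at -0.58 and DCN, a small proteoglycan, at -0.03. VIM was at 0.05 and FBLN1, a basement membrane-associated fibulin, at 0.23. All 6 fibroblast markers had a positive cortisol difference in each region, with medians of 0.46 and 0.49, and none passed. The positive share of all probes was 49.1% in LV and 54.7% in septum. COL1A1, COL1A2 and COL3A1 also stand in the list of fibrillar collagens, by the same probes, so the counts of the lists overlap. VIM, an intermediate filament of mesenchymal cells, had an r of 0.83 with COL4A1 and 0.80 with COL4A2. Of 11 pericyte and smooth muscle markers, CNN1 and MYLK had named probes, with a septum over LV median of -0.01 (-1.14 to 0.29).

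Of 18 cardiomyocyte markers only MB, myoglobin, had a named probe, and 1 marker cannot check the heart label. The MB level was 234 to 468 times the 75th percentile on the 16 arrays where its spots were not outliers. These were 3 of 5 arrays in each LV group and 5 of 5 in each septum group. Red cell markers (2 of 9 named) and white cell markers (4 of 8 named) had septum over LV medians of 0.01 and -0.54. TYROBP carried 39.8% to 82.2% of the white cell sum. Gene by gene, TYROBP (-0.63) and CD14 (-0.26) averaged lower in septum, and CD3D (0.26) and CD3E (0.12) averaged higher. The part of any of these cell types in the collagen IV values was not tested.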

How the data were processed

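RNA of 20 lamb heart samples was hybridised to 1-colour Agilent arrays. Per the file headers, the deposited scanner files hold processed intensity from Agilent Feature Extraction 10.1.1.1, background-subtracted by the software, on a linear scale. The authors' deposited value table holds log2 values of 10373 probes in LV, with array medians of 6.71 to 6.72. In septum 5453 cells of every column were empty, and the array medians of 9.49 to 9.54 are over the other 4920 probes. Medians over such unlike probe sets cannot show whether the centring differs between regions. Each column of the table matched its own array best, so its direction is known, while its normalization is not given in the sources used here. The submitters' processing notes name limma. The genome build is not given in the sources used here.

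Processed intensities were log2-transformed and each array's 75th percentile subtracted. Outlier spots (2 to 68 per array) and control spots were left out and spots of a probe averaged. Of the spots 57.9% to 72.1% were well above background. A probe was tested if well above background on 5 of 10 arrays of a region, or 10 of 20. A gene was led by its brightest probe. Gene names came from the files and the RefSeq sheep table, which named 1402 of 15008 probes (9.34%, 870 genes). From the pathway lists the text names the measured members, or the 6 brightest where more than 8 were measured; markers are named as they bear on the pair, and to these are added the 6 most similar named genes for each chain.

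Fits used limma 3.58.1 in R 4.3.3, with treatment as the term for each region. The difference between regions was fitted over 20 arrays without a block. Correlations over lambs used 100000 permutations, or exact permutation below 10 lambs. The fits were also run on simulated arrays with independent noise and cortisol shifts larger than those of the pair. No difference in response between regions was planted, and such runs cannot show how the fits treat smaller shifts or shared lambs and slides. Replicates are separate ewes and lambs per the labels. The number of arrays limits the precision. The labels do not say that LV and septum arrays of 1 number are 1 lamb. This was inferred from the residual correlations of the tested probes (r 0.447 to 0.813). The own partner was the highest of the 5 septum arrays of that treatment for 10 of 10. Control and cortisol samples of the same number were not taken as pairs (r 0.0723 to 0.288 in LV, 0.0577 to 0.273 in septum). The own number was the best match for 3 of 5 in each region, and a fit with such pairs is given below. Slides were read from the file names, and all arrays were scanned on 1 day.

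The members, gene lists and marker lists were chosen with earlier results of these data known, so their counts are descriptions. Alternatives were background correction, scaling, outlier spots, dim-probe filter, slide, replicate block, each lamb left out, the deposited table and the contig probe. Fetal arrays named in the series text were not analysed here.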

Additional observations from a re-analysis of the deposited data

How the results depend on the processing

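With normexp background correction and an added offset of 50, the septum minus LV difference moved to -0.56 for COL4A1 and -0.50 for COL4A2. The contig probe gave -0.022 in place of COL4A2. The cause of either change was not tested. Quantile normalization, median scaling and keeping outlier spots left the difference at -1.03 to -1.09. Leaving out each lamb gave -1.13 to -0.99 for COL4A1 and -1.19 to -1.03 for COL4A2.

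The cortisol difference in LV reversed on slide 2 alone (-1.34 for COL4A1 and -1.46 for COL4A2), and that in septum did so there too (-0.16 and -0.031); slide 2 holds 1 cortisol array of LV, so that fit has no spread within the cortisol arm. Leaving out each lamb gave -0.10 to 0.49 for COL4A1 and 0.24 to 0.93 for COL4A2 in LV. With slide as a fixed block the LV difference was 0.011 for COL4A1 and 0.32 for COL4A2, and as a random block 0.078 and 0.40. Averaged over regions, leaving out each lamb gave 0.024 to 0.47 for COL4A1 and 0.28 to 0.79 for COL4A2. The difference between regions went from -0.037 to 0.25 for COL4A1 and from -0.28 to 0.095 for COL4A2 with a lamb left out, and was 0.041 for COL4A2 with slide as a random block. The count of probes passing was 0 under every alternative run, with 7 to 1814 unadjusted in septum and 227 to 1129 in LV.

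The correlation of the pair fell to 0.71 on septum slide 1 alone (exact permutation p = 0.0944, 6 arrays), and with the contig probe in place of COL4A2 to 0.054 in LV and 0.38 in septum. In the main setting it was 0.923 in LV and 0.819 in septum. With normexp background correction and its offset it was 0.932 and 0.957, and with median scaling 0.914 and 0.778. The cause of these changes was not tested.

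Pairing control and cortisol samples with a replicate block on their shared number left the differences at 0.12 and 0.45 in LV and 0.28 and 0.43 in septum, with 0 probes passing (602 and 682 unadjusted), and the block on the lamb left the difference between regions at 0.16 and -0.02, with 0 passing (357 unadjusted). It changed no call. The members' processed intensities were 56.1 to 431, and with 5 lambs a group the 95% intervals of their cortisol differences in LV and septum span more than 1 log2 unit.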
